A study of Mus musculus with 12 samples.

Results

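The genes described here were listed at 0 FPKM (fragments per kilobase of transcript, adjusted for library size) in both wild-type MII oocyte libraries and were present in both Cnot6l-/- MII libraries. Of 23235 genes in the deposited table, 12720 were at 0 in both wild-type (WT) MII libraries, and 1483 of those were above 0 in both Cnot6l-/- (KO) MII libraries. Symbols with 15 prefixes (Rpl, Rps, Mrp, Psm, Nduf, Uqcr, Cox, Atp5, Eif, Eef, Slc, Zfp, Snrp, Ube2 and Kif) were dropped. The remaining 1383 were ranked by the lower of the 2 KO MII libraries, and the 150 highest were taken. The MII values therefore chose these genes and are given as a description with no test, whereas the GV and MI libraries took no part in the choice.

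Fully grown oocytes transcribe little, so the proteins of meiotic maturation are made from stored maternal mRNA. An mRNA that loses its poly(A) tail can leave the polysomes and can be degraded, and one whose tail is extended can be recruited to them. CCR4-NOT is the complex that shortens poly(A) tails, and CNOT6L is one of its deadenylases. AU-rich elements in the 3' UTR are bound by ZFP36-family proteins that bring CCR4-NOT to an mRNA, while cytoplasmic polyadenylation elements recruit CPEB proteins.

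Polysome-bound RNA was sequenced from oocytes of C57BL/6 mice at postnatal day 21, with 2 libraries in each of 6 groups: KO and WT at the germinal vesicle stage (GV), at MI and at MII. GV oocytes were taken 48 h after PMSG, a gonadotropin that stimulates follicle growth, and MI and MII oocytes had been cultured for 8 h and 16 h. The labels give neither the deleted part of Cnot6l nor the origin of the replicates, so p-values measure the spread between libraries, which may be technical. Cnot6l had 6.28 and 21.6 FPKM in KO GV against 38.7 and 16.1 in WT GV, 23.5 and 16.5 at MI in KO against 68.5 and 47.9 in WT, and 16.4 and 16.01 at MII in KO against 65.2 and 49.4 in WT. The KO libraries lay below the WT libraries at MI and MII and overlapped them at GV, and the KO minus WT difference passed the test at neither GV (limma adjusted p = 0.576) nor MI (limma adjusted p = 0.0878).

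The 10 oocyte markers (among them Gdf9, Bmp15 and Zp3) summed to 22019 to 57787 FPKM per library, and none was at 0 in both libraries of a group. The 14 cumulus and granulosa markers summed to 51.8 to 321 FPKM, with Foxl2 and Lhcgr at 0 in every group, and the 10 theca, stroma, endothelium and blood markers to 13.8 to 72.3 FPKM. Library totals ran from 884142 to 1663871 FPKM, and 9064 to 13319 genes were above 0. The median log2 difference over all genes tested was 1.02 for KO minus WT at MI and -0.86 for MI minus GV in WT. Many differences below are therefore also given relative to the median of all genes in the same comparison. In bulk polysome RNA, fewer molecules on polysomes and less of that mRNA per oocyte cannot be told apart.

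The lower KO MII value ran from 62.2 FPKM for 7420700N18Rik, ranked first, to 8.29 for Tmem22, 8.28 for A930018P22Rik and 8.24 for Rrp9, which is needed for ribosomal RNA processing and was ranked last. Just outside lay Sertad1 with 8.22 FPKM and Arhgap9 and Lbx2 with 8.14 FPKM each. Another 11 genes above the last value carried a dropped prefix. Of 5651 genes with no dropped prefix that reached 8.24 FPKM in both KO MII libraries, 150 (2.65%) were at 0 in both WT MII libraries, 206 in WT MII library 1 alone and 247 in WT MII library 2 alone. The zeros of 1 library alone thus outnumbered the zeros shared by both, and a listed 0 need not be absence. With genotypes exchanged, 6 genes met the rule. The WT MII libraries listed fewer genes above 0 (9116 and 9064) than the KO MII libraries (12112 and 11936). Zeros were thus commoner in WT MII over all genes, and the 2 counts do not start from equal terms. Applied at MI the rule found 72 genes, and at GV it found 5.

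Among the 150 genes, 25 had predicted or cDNA-clone symbols, counted as Gm with a number or ending in Rik. Clone symbols of other forms were not counted. The 150 genes included cell-surface and secreted proteins (Lypd3, Pglyrp1, Gpc3), a cell-cycle inhibitor (Cdkn1b), transcription factors (Zglp1, Snai3), mitochondrial enzymes (Idh3g, Idh3b) and endosomal and Golgi traffic proteins (Rab4b, Rab5b, Cog8). Of the genes that reached the same KO MII level, 16 of 303 on chromosome 6 (5.28%), 18 of 371 on chromosome 7 (4.85%), 19 of 401 on chromosome 5 (4.74%) and 13 of 314 on chromosome 8 (4.14%) belonged to the set, against 1 of 328 on chromosome 1 (0.305%). These chromosomes were picked for their high or low shares after the values were seen, with no test. Chromosome 5 carries Cnot6l, and its nearest members, Ccdc158 and Fam47e, lay 3.402 and 3.486 Mb from Cnot6l. Its other members lay 16.181 to 64.95 Mb away.

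Their annotated transcripts were short. A coding transcript was found for 135 of the 150 genes (90.0%) in GENCODE mouse release M1 (NCBIM37, the same build as mm9), with a median length of 1621 bases against 2594.5 bases in 5352 other genes that reached the same KO MII level. The 3' UTR had a median of 331 bases in 133 of the genes and 808 bases in 5220 others, while the coding part had medians of 1032 and 1281 bases. Members made up 5.49% of genes with a 3' UTR of 10 to 250 bases, 3.03% of those with 250 to 500, 1.55% of those with 500 to 1000 and 1.44% of those with 1000 or more. The 3' UTRs had a median GC content of 46.8%, against 43.3% in the others. These are descriptions with no test. FPKM divides by transcript length, so a short transcript of a given FPKM rests on fewer fragments, and the part of length in the listed zeros was not tested.

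**Figure D1:**
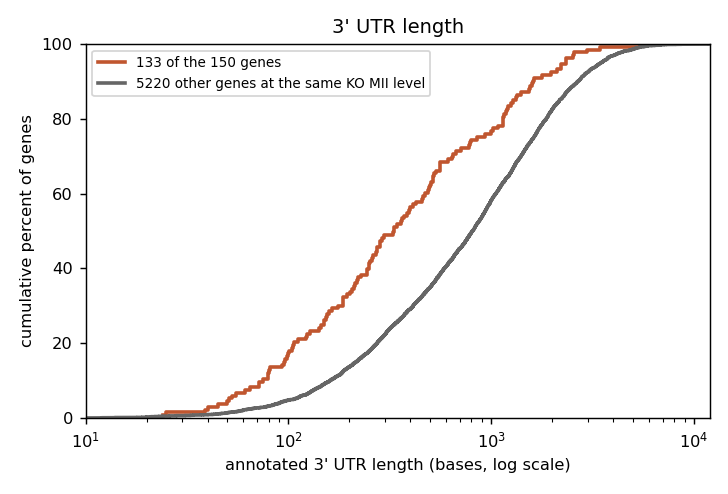
Cumulative share of genes (vertical axis, percent) by annotated 3' UTR length (horizontal axis, bases, log scale) for 133 of the 150 genes (orange) and 5220 other genes that reached the same KO MII level (grey). The orange curve lies to the left, with medians of 331 and 808 bases.

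Both elements that link 3' UTRs to deadenylation and polyadenylation were looked for on the transcribed strand. The AU-rich heptamer TATTTAT was in 14 of the 133 3' UTRs (10.5%), against 24.6% of the other genes at the same KO MII level and 24.8% of 10903 3' UTRs of all genes tested. The cytoplasmic polyadenylation element TTTTAT was in 35 of the 133 (26.3%), against 53.8% and 50.9%. Within classes of 3' UTR length the members' shares were lower too. For TTTTAT they were 5.56% of members against 17.1% of other genes at 10 to 250 bases, 21.4% against 34.04% at 250 to 500, 21.1% against 51.1% at 500 to 1000 and 68.8% against 78.9% at 1000 or more. For TATTTAT they were 0% against 4.41%, 3.57% against 10.5%, 15.8% against 19.8% and 31.2% against 41.7% in the same order. The classes held 54, 28, 19 and 32 members. Sites of 5 of the 150 genes, 3 chosen for the heptamer and 2 for the polyadenylation element, are shown so that the elements can be read in their context. The element is in capitals with 10 bases on either side, 5' to 3' on the transcribed strand. The Rab5b stretch also reads TTTTAT, overlapping its heptamer, and the 3' UTR of Cdkn1b holds TTTTAT too. Cdkn1b carries its site at chr6:134874137-134874163 (plus strand, 3 copies in a 3' UTR of 3439 bases), and Rab4b at chr7:27953492-27953518 (minus strand). Rab5b carries its site at chr10:128116041-128116067 (minus strand), Ptgr1 at chr4:58979265-58979290 (minus strand) and Snx15 at chr19:6119472-6119497 (minus strand), all in NCBIM37.
Cdkn1b: ttagtgcctgTATTTATccatcattac
Rab4b: gcaagtctgtTATTTATtacctggagg
Rab5b: tttcccatttTATTTATctggtaagag
Ptgr1: tctgttctgaTTTTATttctgttgta
Snx15: ctttctttttTTTTATggttggaaga

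Most of the 150 genes were on polysomes at GV in both genotypes, and of the 4 GV and MI groups WT MI had the lowest levels. The median of the gene means was 27.6 FPKM in KO GV and 26.7 in WT GV, 26 in KO MI and 7.15 in WT MI, and 16.8 in KO MII against 0 in WT MII. The 5501 other genes at the same KO MII level had medians of 55.0 and 56.0 FPKM at GV (KO and WT), 66.9 and 32.3 at MI, and 41.8 and 24.9 at MII. With libraries brought to the same total (TPM), the 150 genes summed to 5184 and 5286 TPM in the KO GV libraries and 4313 and 4269 in WT GV. At MI they summed to 2914 and 3022 TPM in KO and 1488 and 1501 in WT, so the sums of the genotypes did not overlap at either stage. All genes shifted too: with TPM the median KO minus WT difference was 0.31 for the 150 genes and 0.16 for all genes at GV. At MI it was 1.25 and 0.45. Genes at 0 in both libraries of a group numbered 1 in KO GV, 2 in WT GV, 0 in KO MI and 13 in WT MI, with another 6, 5, 1 and 34 at 0 in 1 library. Replicates of the same gene lay more than 3-fold apart for 27 genes in KO GV, 18 in WT GV, 11 in KO MI and 60 in WT MI.

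**Figure D2:**
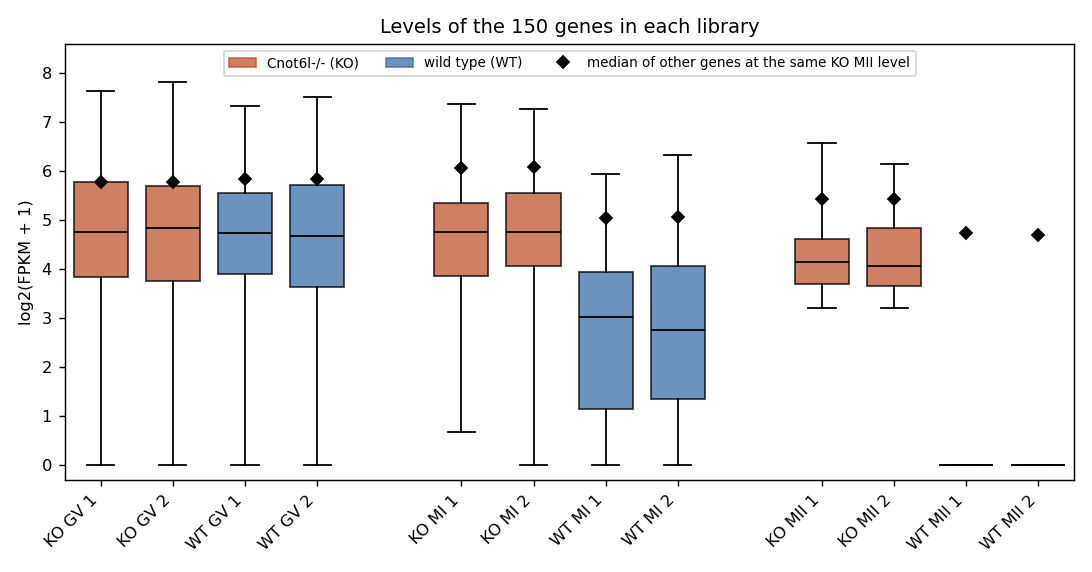
Levels of the 150 genes in each of the 12 libraries (vertical axis, log2(FPKM + 1)): boxes give the quartiles and median, whiskers the lowest and highest gene, orange KO and blue WT, and diamonds the median of 5501 other genes that reached the same KO MII level. The medians of the WT MI boxes lie below those of the other GV and MI boxes, and the WT MII boxes at 0 follow from the choice of genes.

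Differences were tested with limma on log2(FPKM + 1) of the 8 GV and MI libraries, over the 11877 genes with a mean of at least 1 FPKM, and a gene is called at a Benjamini-Hochberg adjusted p below 0.05 over all of them. All 150 genes passed that filter. A difference on this scale understates the fold change of low genes, and none is given where a group was listed at 0.

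At GV no difference between KO and WT passed the test. None of the 150 genes was called higher or lower in KO GV by limma, with 6 higher and 8 lower at an unadjusted p below 0.05. Of all genes tested, 0.135% were called higher and 1.56% lower. The median difference KO minus WT was 0.08 for the 150 genes and -0.05 for all genes, and 85 genes had the higher mean in KO GV and 65 in WT GV. The KO GV libraries lay above both WT GV libraries for 34 genes (background 17.8%) and below them for 32 (background 24%). Lypd3, a GPI-anchored surface protein of the Ly6 family, had the highest mean in KO GV, with 198 and 225 FPKM in KO GV against 159 and 147 in WT GV (difference 0.46 ± 0.27 SE, limma adjusted p = 0.576). Cdkn1b, which encodes the cyclin-dependent kinase inhibitor p27, had 37.0 and 42.1 FPKM in KO GV against 34.8 and 35.9 in WT GV (difference 0.16 ± 0.31, limma adjusted p = 0.906). Both had the higher values in KO without passing the test. Cumulus and granulosa markers summed to 152 to 201 FPKM in KO GV and 285 to 321 in WT GV, and their part was not tested. Inha made up most of these sums, with 112.6 and 152.4 FPKM in KO GV against 200.9 and 238.8 in WT GV. It was not called (limma adjusted p = 0.344). Kitl went the other way, and Foxl2, Ptx3, Tnfaip6 and Lhcgr were at 0 in both genotypes. Of the 150 genes, the smallest adjusted p belonged to Lrrc51, singled out for that after its values were seen. It had 12.7 and 20.4 FPKM in KO GV and 0 in both WT GV libraries (limma adjusted p = 0.0644).

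At MI, 73 of the 150 genes (48.7%) were higher in KO oocytes and none was lower, also at an unadjusted p below 0.05. The background was large: 34.1% of all genes tested were called higher and 0.547% lower. The median difference was 1.87 for the 150 genes and 1.02 for all genes, and 109 of the 150 lay above the median of all genes. Both KO MI libraries lay above both WT MI libraries for 122 genes (background 68.9%), and the reverse held for 0 (background 3.17%). After each library was scaled by its median ratio, 20 of the 150 genes were called higher and 0 lower, against 3.05% higher and 3.77% lower of all genes. The count fell to 29 without KO MI library 1 and 24 without KO MI library 2, fits in which the lone library is taken to vary like the other groups. The 14 cumulus and granulosa markers summed to 142 to 177 FPKM in KO MI and 118.4 to 135 in WT MI, with Foxl2 and Lhcgr at 0 in both. They went in different directions. Cyp19a1 had 100.8 and 92.0 FPKM in KO MI against 36.5 and 32.8 in WT MI (limma adjusted p = 0.0211, and 0.603 with median scaling). Ptx3 had 11.15 and 3.71 against 32.1 and 40.2 (limma adjusted p = 0.0286), and Tnfaip6 1.25 and 1.19 against 7.88 and 5.79 (0.0537). The 10 theca, stroma, endothelium and blood markers summed to 64.02 to 72.3 FPKM in KO MI and 13.8 to 37.97 in WT MI, with Cyp17a1, Cdh5, Ptprc, Col1a1 and Col3a1 at 0 in both. Pecam1 made up most of that sum, with 66.4 and 64.02 FPKM in KO MI against 37.97 and 13.09 in WT MI. It was not called (limma adjusted p = 0.0767), so the sum rests on 1 gene and not on the list. The part of these cells in the differences was not tested.

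**Figure D3:**
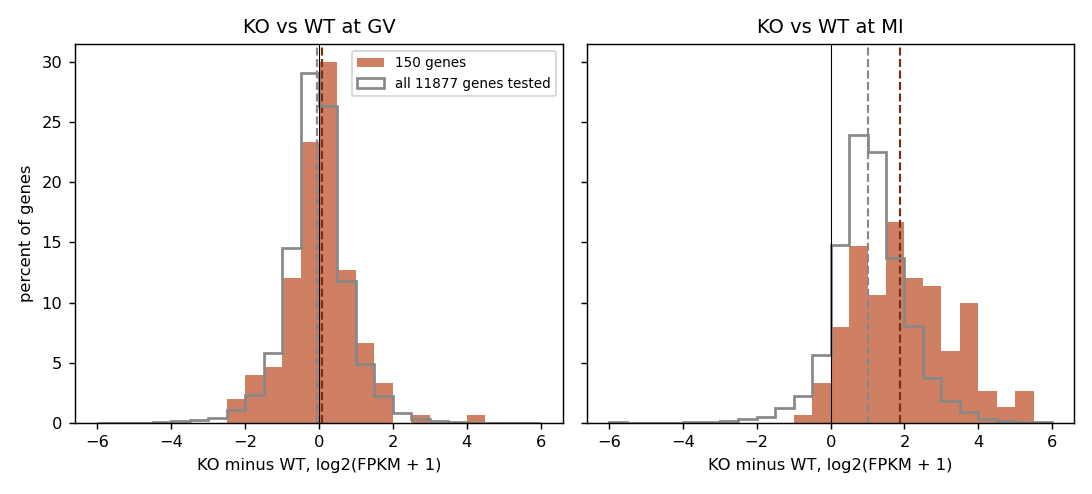
Distribution of the KO minus WT difference (horizontal axis, log2(FPKM + 1)) as a percent of genes (vertical axis) at GV (left) and MI (right), for the 150 genes (orange) and all 11877 genes tested (grey outline), with dashed lines at the medians. The medians are 0.08 and -0.05 at GV and 1.87 and 1.02 at MI.

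Among the named members that encode surface, secreted or immune proteins, differences at MI varied in size. Lypd3 had 166 and 153 FPKM in KO MI against 2.06 and 3.81 in WT MI, a difference of 5.38 ± 0.27 (limma adjusted p = 1.69e-05; 4.36 relative to all genes). Pglyrp1, a secreted peptidoglycan-binding protein of innate immunity, had 32.3 and 55.2 FPKM in KO MI against 1.59 and 3.57 in WT MI (difference 3.65 ± 0.48, limma adjusted p = 0.000948; relative 2.63). In both genes the KO and WT libraries did not overlap. Rnase6, a secreted ribonuclease of the RNase A family, had 16.3 and 21.6 FPKM in KO MI against 0.58 and 0 in WT MI (difference 3.98 ± 0.57, limma adjusted p = 0.00158). Extl1, a glycosyltransferase of heparan sulfate synthesis, had 33.8 and 44.3 FPKM in KO MI and was listed at 0 in both WT MI libraries (limma adjusted p = 0.000214). These 4 calls held under all 16 alternatives tried. Sh2b3, an adaptor that dampens cytokine receptor signalling, had 34.4 and 42.1 FPKM in KO MI against 14.6 and 9.40 in WT MI (difference 1.62 ± 0.33, limma adjusted p = 0.00666; relative 0.60), a difference below the median of the 150 genes. That call held in 12 of 16 alternatives (adjusted p 0.00483 to 0.376) and was lost without KO MI library 2 (0.0662) and with median scaling (0.33). Gpc3, a glypican of the cell surface, had 10.97 and 17.6 FPKM in KO MI against 10.2 and 4.16 in WT MI and was not called (difference 0.97 ± 0.61, limma adjusted p = 0.24; relative -0.05).

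Among the first 15 by rank were also regulators of the cell cycle, of transcription and of chromosomes. Cdkn1b had 81.5 and 87.6 FPKM in KO MI against 3.56 and 3.85 in WT MI, a difference of 4.18 ± 0.31 (limma adjusted p = 7.28e-05; relative 3.16). Zglp1, a GATA-type zinc finger protein known for oogenic fate in mouse germ cells, had 64.5 and 50.4 FPKM in KO MI against 0 and 4.16 in WT MI (difference 4.67 ± 0.67, limma adjusted p = 0.00154; relative 3.65). Both calls held under all 16 alternatives, and in both genes the lower KO value was above the higher WT value. Snai3, a zinc finger factor of the Snail family, had 92.4 and 56.2 FPKM in KO MI against 12.5 and 30.6 in WT MI (difference 1.82 ± 0.43, limma adjusted p = 0.0135; relative 0.80), lost with median scaling (0.34) and without KO MI library 1 (0.119). Dscc1, a subunit of the clamp loader used in sister chromatid cohesion, had 81.0 and 83.2 FPKM in KO MI against 37.7 and 43 in WT MI. Its difference of 1.01 ± 0.24 (limma adjusted p = 0.013) was close to the median of all genes: it was -0.01 relative to them and turned to -0.05 with median scaling, and its call was lost without KO MI library 1 (0.0738) or 2 (0.0833). Hist1h4h, a histone H4 gene, had 74 and 52.9 FPKM in KO MI against 11.3 and 0 in WT MI (difference 4.18 ± 1.26, limma adjusted p = 0.0339). Its near-identical copies can share reads, and the call held in 5 of 16 alternatives (adjusted p 0.00462 to 0.228), being lost without KO MI library 1 (0.173) or 2 (0.143), WT MI library 2 (0.165) or WT GV library 1 (0.0665) or 2 (0.0659).

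Of the enzymes among the first 15 by rank, Idh3g and Itpa were called higher in KO MI, and Noa1 and N6amt2 were not called. Idh3g, a regulatory subunit of the mitochondrial NAD-dependent isocitrate dehydrogenase, had 47.6 and 54.3 FPKM in KO MI against 9.41 and 10.4 in WT MI (difference 2.25 ± 0.28, limma adjusted p = 0.000732; relative 1.23). That call held under all 16 alternatives. Itpa, which hydrolyses inosine triphosphate, had 102 and 81.9 FPKM in KO MI against 16.0 and 31.4 in WT MI (difference 1.98 ± 0.53, limma adjusted p = 0.0223; relative 0.95), lost with median scaling (0.354) and without KO MI library 1 (0.141) or 2 (0.103) or WT MI library 1 (0.102). Noa1, a mitochondrial GTPase, had 48.02 and 94.4 FPKM in KO MI against 44.7 and 16.8 in WT MI. Its difference of 1.26 ± 0.56 did not pass (limma adjusted p = 0.111; 0.24 relative to all genes), except without WT MI library 1 (0.0397). N6amt2, a methyltransferase, had 40.2 and 22.7 FPKM in KO MI against 16.5 and 4.75 in WT MI, and its difference of 1.64 ± 0.57 did not pass either (limma adjusted p = 0.0527), except without WT MI library 1 (0.0096).

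Of the cytoskeletal genes, Actg2, the smooth muscle gamma actin, had 17.8 and 20.5 FPKM in KO MI and was listed at 0 in both WT MI libraries (limma adjusted p = 0.0128). The call was lost with median scaling (0.0583) and without KO MI library 1 (0.0851) or 2 (0.0974). The noncoding transcript Snhg9, host of a small nucleolar RNA, had 32.4 and 33.3 FPKM in KO MI and was listed at 0 in both WT MI libraries (limma adjusted p = 0.0321). Its WT GV libraries read 0 and 60.8 FPKM, and its call held in 6 of 16 alternatives (adjusted p 0.0014 to 0.175). It was lost without either library of KO GV (0.0693 and 0.0694), of KO MI (0.149 and 0.156) or of WT MI (0.0948 and 0.0939). Uncharacterised loci among the first 15 were called higher too. 7420700N18Rik had 39.1 and 47.2 FPKM in KO MI and was listed at 0 in both WT MI libraries (limma adjusted p = 0.000137). 1700023L04Rik had 30.3 and 42.1 FPKM in KO MI against 0 and 1.75 in WT MI (limma adjusted p = 0.000664). 0910001L09Rik had 111 and 106 FPKM in KO MI against 38.8 and 50.6 in WT MI (limma adjusted p = 0.00323). Its difference was 0.25 relative to all genes, and the call held in 13 of 16 alternatives (adjusted p up to 0.602, with median scaling).

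**Figure D4:**
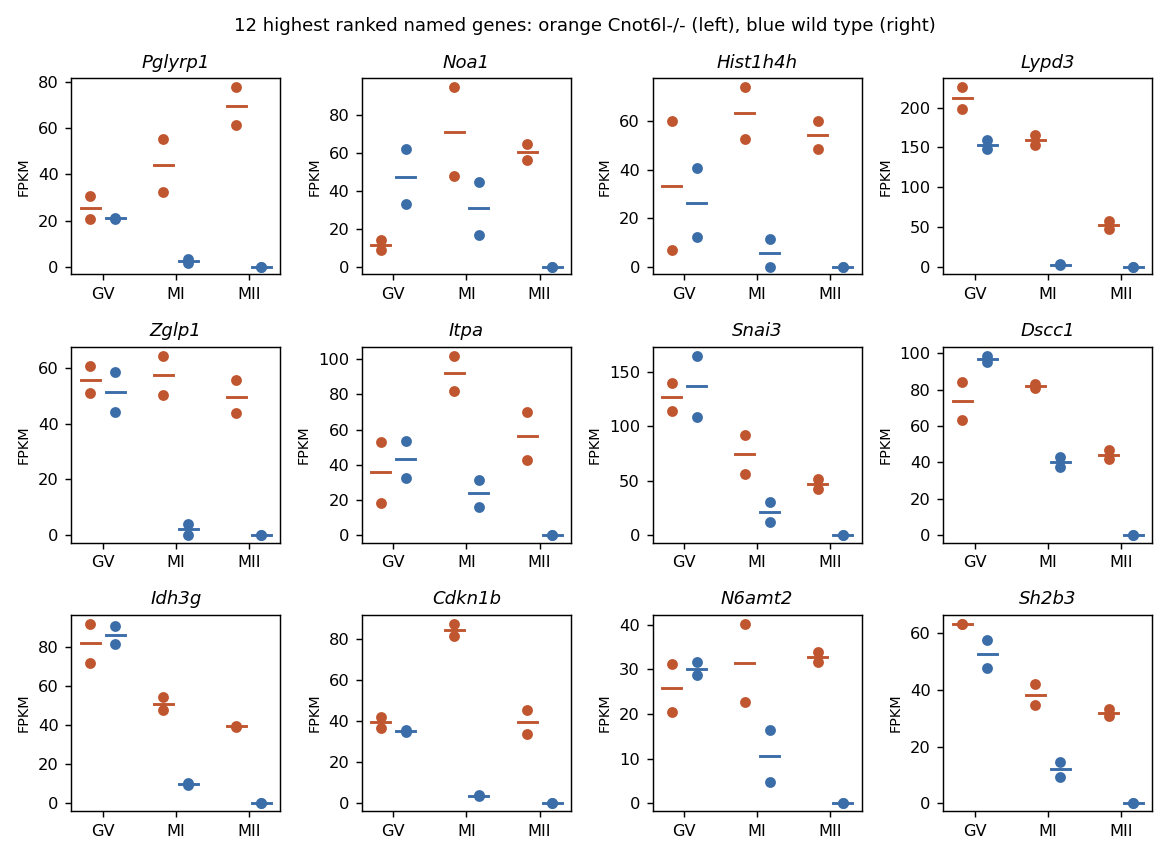
FPKM (vertical axis) of the 12 highest ranked genes with a gene name at GV, MI and MII, each point 1 library and each line the mean of 2, with orange KO to the left of blue WT. Lypd3 and Zglp1 are near 0 in WT MI and above 50 FPKM in KO MI, Snai3 and Dscc1 keep part of their level in WT MI, and all WT MII values are 0 by the choice of genes.

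In WT, 78 of the 150 genes (52%) were lower at MI than at GV, and none was higher, also at an unadjusted p below 0.05. Of all genes tested, 27% were called lower and 3.15% higher, and the median change was -1.88 for the 150 genes and -0.86 for all genes. The WT MI mean was below the WT GV mean in 140 genes. Both WT MI libraries lay below both WT GV libraries in 113 genes (background 54.8%) and above them in 4 (background 9.3%). With median scaling 34 genes were called lower and 0 higher, against 9.79% and 9.32% of all genes. The count was 39 without WT GV library 1 and 36 without WT GV library 2. At the other end, 21 genes still had a WT MI mean of at least 20 FPKM, with the polysome level of all 150 at 0 in WT MII by the choice of genes.

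The changes in WT were led by Lypd3, whose FPKM of 2.06 and 3.81 in WT MI stood against 159 and 147 in WT GV, a change of -5.33 ± 0.27 (limma adjusted p = 8.49e-06; -4.47 relative to all genes). Rnaset2b, a ribonuclease of the T2 family, had 0.87 and 0.96 FPKM in WT MI against 54.1 and 41.0 in WT GV (change -4.65 ± 0.36, limma adjusted p = 5.74e-05). Its near-identical copy Rnaset2a was listed at 0 in every library, so the value may hold reads of both. Zglp1 had 0 and 4.16 FPKM in WT MI against 58.5 and 44.4 in WT GV (change -4.52 ± 0.67, limma adjusted p = 0.00146). Glrx3, a cytosolic glutaredoxin that carries iron-sulfur clusters, had 1.8 and 10.98 FPKM in WT MI against 124 and 117 in WT GV (change -4.39 ± 0.59, limma adjusted p = 0.000872). It overlaps Gm12669, also one of the 150, on the same strand. Idh3g had 9.41 and 10.4 FPKM in WT MI against 91.1 and 81.7 in WT GV (change -3.00 ± 0.28, limma adjusted p = 0.000131). Cdkn1b had 3.56 and 3.85 FPKM in WT MI against 34.8 and 35.9 in WT GV (change -2.95 ± 0.31, limma adjusted p = 0.00027). These calls held without any 1 library, and of the 78 calls 21 held under all 16 alternatives.

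Other genes were at 0 in at least 1 WT MI library, with calls that were lost without single libraries. Klc3, a kinesin light chain, was at 0 in both WT MI libraries, against 27.3 and 8.98 FPKM in WT GV (limma adjusted p = 0.0372). It was called in 6 of 16 alternatives (adjusted p 0.00651 to 0.22) and lost without either library of WT GV (0.22 and 0.0997), KO MI (0.0828 and 0.0829) or WT MI (0.103 and 0.104). Actg2 was at 0 in both WT MI libraries, against 15.8 and 23.8 FPKM in WT GV (limma adjusted p = 0.0127), lost without WT GV library 1 (0.073) or 2 (0.102). Ddx25, a DEAD-box helicase known from testis, had 21.9 and 0 FPKM in WT MI against 88.1 and 49.8 in WT GV (limma adjusted p = 0.0369). Its call held in 4 of 16 alternatives (adjusted p 0.000188 to 0.21) and was lost without any library of KO GV (0.0811 and 0.0814), WT GV (0.203 and 0.131) or KO MI (0.0843 and 0.0844).

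In KO oocytes 9 of the 150 genes changed between GV and MI by the test, while 13 had a higher and 17 a lower level at an unadjusted p below 0.05. Of the 9, 4 were called higher at MI than at GV and 5 lower, against 9.72% and 2.18% of all genes tested, and the median change was 0.03, with 0.25 for all genes. Both KO MI libraries lay above both KO GV libraries in 28 genes (background 37%) and below them in 53 (background 18.8%). Higher were Gpc3, with 10.97 and 17.6 FPKM in KO MI against 0.65 and 0.62 in KO GV (change 3.19 ± 0.61, limma adjusted p = 0.0103), and Noa1, with 48.02 and 94.4 against 14.0 and 8.71 (change 2.5 ± 0.56, limma adjusted p = 0.0213). Phyh, a peroxisomal enzyme of phytanic acid breakdown, had 21.1 and 30.6 FPKM in KO MI against 6.91 and 5.70 in KO GV (change 1.86 ± 0.47, limma adjusted p = 0.0338). Lower were Spa17, a sperm surface autoantigen, with 28.9 and 48.3 FPKM in KO MI against 112 and 125 in KO GV (change -1.63 ± 0.33, limma adjusted p = 0.0125), Znhit1, a subunit of a chromatin remodeller (change -1.63 ± 0.40, limma adjusted p = 0.0313), and Rnaset2b (change -1.41 ± 0.36, limma adjusted p = 0.0381). None of the 9 calls held under all 16 alternatives. The count was 0 and 1 without KO MI library 1 and 2, 5 and 2 without KO GV library 1 and 2, 5 without either WT GV library, and 17 and 16 without WT MI library 1 and 2.

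The change from GV to MI differed between the genotypes for 32 of the 150 genes (21.3%), each with the higher MI minus GV change in KO, and for 0 in the other direction, also at an unadjusted p below 0.05. The background was 20.2% of all genes, and 0.269% in the other direction, so the share called was close to that of all genes. The median difference of the changes was 1.95 for the 150 genes and 1.12 for all genes. With median scaling 4 genes were called, against 0.977% of all genes in that direction and 1.1% in the other. Cdkn1b changed by 1.08 ± 0.31 in KO and by -2.95 ± 0.31 in WT, a difference of 4.03 ± 0.44 (limma adjusted p = 0.000744; relative 2.91). Lypd3 changed by -0.41 ± 0.27 in KO and by -5.33 ± 0.27 in WT, a difference of 4.92 ± 0.39 (limma adjusted p = 0.000168; relative 3.8). Neither change in KO passed the test (limma adjusted p = 0.061 for Cdkn1b and 0.439 for Lypd3). These calls and that of 7420700N18Rik held under all 15 alternatives tried. The count fell to 21 without KO GV library 1, to 13 without either WT GV library, and to 10 and 9 without KO MI library 1 and 2, and it was 49 without WT MI library 1.

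**Figure D5:**
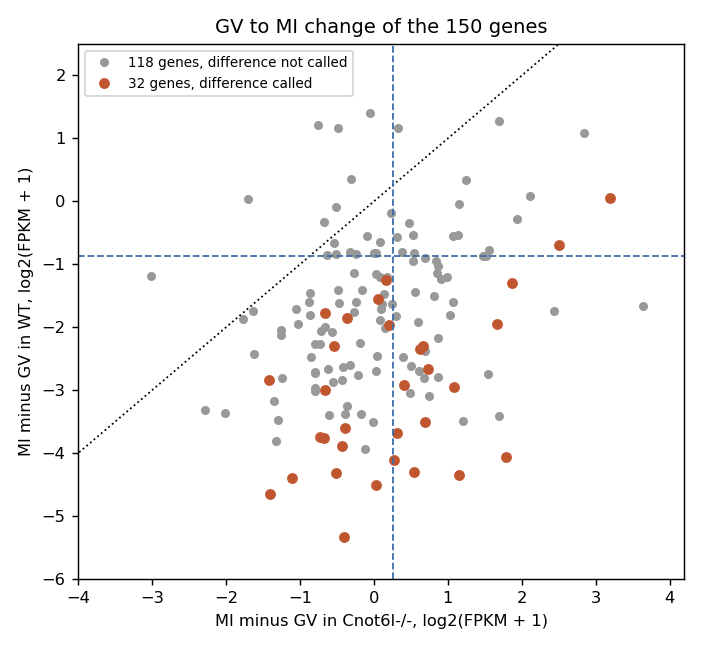
MI minus GV change in KO (horizontal axis) and in WT (vertical axis), both in log2(FPKM + 1), for each of the 150 genes, with the 32 whose changes differed between the genotypes in orange. Dashed lines mark the median change of all 11877 genes (0.25 in KO and -0.86 in WT), the dotted line marks equal changes, and most points lie below it. For 13 genes both WT MI libraries were listed at 0, so their WT change rests on the pseudocount.

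At MII the 150 genes had a median of 16.8 FPKM in KO, and the KO MII mean was below the KO GV mean in 104 genes and above it in 46. Both KO MII libraries lay below both KO GV libraries in 69 genes (background 38.8%) and above them in 21 (background 19.8%). The KO MII libraries lay below both KO MI libraries in 77 genes (background 54.9%) and above them in 16 (background 5.4%). The 150 genes were ranked by their KO MII values, and the background genes had no such floor. These counts therefore depend on the choice of genes, and their distance from the background is not a result about them. Among KO libraries, Pglyrp1 had 77.5 and 61.2 FPKM at MII, 32.3 and 55.2 at MI and 20.9 and 30.4 at GV, so its MII values were the highest of the 6. Lypd3 was lowest at MII, with 47.2 and 57.5 FPKM there, 166 and 153 at MI and 198 and 225 at GV in KO. Zglp1 had 55.7 and 43.8 FPKM in KO MII, against 64.5 and 50.4 in KO MI, and these libraries overlapped. Cdkn1b had 33.9 and 45.5 FPKM in KO MII, with 81.5 and 87.6 at MI and 37.03 and 42.1 at GV in KO, so KO MII overlapped KO GV and lay below KO MI. In WT MII all 4 were at 0 by the choice of genes.

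Grouped by families written as symbol patterns, 35 of the 150 genes fell into one, and the shares stand beside the 2.65% of all genes that reached the same KO MII level. Membrane traffic held 9 of 195 such genes (4.62%): Rab4b, a Rab GTPase of early endosomes, had 77.1 and 85.8 FPKM in KO MI against 35.95 and 31.99 in WT MI (difference 1.24 ± 0.22, limma adjusted p = 0.00421; relative 0.22), a call lost with median scaling (difference 0.18, adjusted p = 0.677). Snx15, a sorting nexin, had 82.0 and 60.0 FPKM in KO MI against 12.5 and 1.33 in WT MI (difference 3.66 ± 0.69, limma adjusted p = 0.00507; relative 2.64), lost with median scaling (0.0709) and without KO MI library 1 (0.0604). Of the 9, 3 were called higher in KO MI and 0 lower, to be read, like the family counts below, against the 34.1% of all genes that were called higher. Arl6ip4, which entered this family by its symbol and is known as a splicing-associated protein, had 46.5 and 31.3 FPKM in KO MI against 37.1 and 0 in WT MI and was not called (limma adjusted p = 0.146), except without WT MI library 1 (0.000487). The mitochondrial family held 4 of 115 (3.48%), of which 3 were called higher in KO MI, although Glrx3 and Aco1, the cytosolic aconitase that also acts as an iron regulatory protein, work in the cytosol. Aco1 had 37.6 and 56.6 FPKM in KO MI against 17.1 and 13.23 in WT MI (difference 1.56 ± 0.45, limma adjusted p = 0.0286; relative 0.53), lost with median scaling (0.546) and without KO MI library 1 (0.0813) or 2 (0.184), WT MI library 2 (0.094) or WT GV library 1 (0.0595) or 2 (0.0597).

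Ribosome biogenesis and tRNA genes were 5 of 87 (5.75%), and 1 of the 5 was called higher in KO MI. Rpp38, a subunit of RNase P, had 67.6 and 46.5 FPKM in KO MI against 46.2 and 33.1 in WT MI (difference 0.51 ± 0.33, limma adjusted p = 0.254; -0.51 relative to all genes). Bop1, needed for large ribosomal subunit assembly, had 43 and 51.5 FPKM in KO MI against 35.7 and 17.8 in WT MI (difference 0.87 ± 0.43, limma adjusted p = 0.144; relative -0.15). The KO libraries lay above the WT libraries in both, but with median scaling the differences turned to -0.545 for Rpp38 and -0.172 for Bop1, so neither has a settled direction. Ubiquitin ligases were 5 of 232 (2.16%) with 1 called higher, RNA processing genes 3 of 147 with 1, DNA replication and repair genes 2 of 107 with 2, chaperones 2 of 90 with 1 and chromatin genes 2 of 120 with 1. Signalling kinases and phosphatases were 1 of 154 and the cytoskeleton 1 of 144, each called higher, and lipid and glycan synthesis 1 of 71, not called. The families go by symbol and miss some members: Extl1 and Klc3, both called higher in KO MI, fell into none. Family counts are thus of symbols matched and not of all genes with that function. No member came from 100 transcription machinery genes or 38 nuclear pore genes. No family had a member called lower in KO MI.

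The 25 listed genes of the deadenylation pathway (CCR4-NOT, PAN2-PAN3, PARN, BTG/TOB, ZFP36 and poly(A)-binding proteins) contained no member. For Zfp36, Zfp36l1 and Zfp36l2 this was fixed in advance, since symbols with the prefix Zfp were dropped. In KO against WT at MI, 11 of the 25 were called higher (34.1% of all genes) and 0 lower (0.547%), and at GV 1 was higher (0.135%) and 1 lower (1.56%). From GV to MI, 6 were called higher (9.72%) and 0 lower (2.18%) in KO, and 4 higher (3.15%) and 6 lower (27%) in WT. The RNA-binding proteins Zfp36l1 and Zfp36l2 were listed at 0 in both WT MII libraries. In the KO MII libraries Zfp36l1 had 0 and 0.4 FPKM and Zfp36l2 had 4.32 and 0.19 FPKM, below the level of the last member.

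Some members cannot be told from their neighbours. The kit is not stated to keep strand, and 24 of the 150 genes overlap another gene of the table, 16 of them a gene on the opposite strand and 11 one on the same strand. Ercc2, a helicase of the repair and transcription factor TFIIH, overlaps Klc3 on the opposite strand, and both are members. Ercc2 had 29.7 and 25.5 FPKM in KO MI against 3.76 and 9.64 in WT MI (limma adjusted p = 0.0314), a call that held in 7 of 16 alternatives (adjusted p 0.0203 to 0.435) and was lost without KO MI library 1 (0.157) or 2 (0.131), WT MI library 1 (0.125) or WT GV library 1 (0.0514). Klc3 had 17.3 and 12.2 FPKM in KO MI and was listed at 0 in both WT MI libraries (limma adjusted p = 0.0378), and that call held in 6 of 16 alternatives. Snhg9 overlaps Snora78, Idh3b overlaps Nop56, and Bop1 overlaps Scx and Heatr7a.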

How the data were processed

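The authors deposited FPKM values of 23235 genes for 12 libraries, and the tables per library hold the same values as the table of all. Per the submitters' processing notes, the tools were TopHat2 2.0.11, Cufflinks 2.2.1, CASAVA 1.8 and Bowtie2 2.1.0, and the build was mm9, with neither roles nor order. Annotation, read filters and spike-ins were not given in the sources used here. How many reads lie behind a value is unknown: low FPKM showed no steps from which whole reads could be recovered, so precision is judged from replicates alone. FPKM were used as deposited.

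From log2(FPKM + 1), limma (version 3.58.1, R version 4.3.3) estimated 4 group means to the 8 GV and MI libraries (residual df 4, prior df 4.52), with an abundance trend and two-sided tests adjusted over 11877 genes. The 4 MII libraries were left out of this fit, since the choice of genes used them. The interaction is the MI minus GV change in KO less that in WT. Comparisons that share libraries (KO minus WT at MI, and MI minus GV in either genotype) are not independent.

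The members, gene families and lists were chosen with earlier results of these data known. Named genes are the first 15 by rank, up to 8 called genes with the largest increase and decrease per comparison whose libraries do not overlap (for the interaction, whatever the overlap), up to 3 per family, the last 3 and next 3 by rank, Cnot6l and the markers. Predicted genes were named only among the first 15 and the last 3 by rank or for an overlap, and the text leaves out some genes. Genes named for a sequence site, an overlap or a neighbouring position were chosen for that. Transcripts, UTRs and sites are from GENCODE release M1 on NCBIM37, the coding transcript being matched by symbol. Alternatives tried were no filter, a pseudocount of 0.1, quantile normalization, TPM, median scaling (mean FPKM of 10 or more), all 12 libraries, a replicate block, the groups of a comparison alone, leaving out each library, and 4 other choices of members.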

Additional observations from a re-analysis of the deposited data

Results flagged for a closer look

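Genotypes differed in their GV to MI change for 32 of the 150 genes, by a test of the difference itself. That is 21.3% of them, close to the 20.2% of all genes called in that direction, and with median scaling 4 were called. The 8 named genes with the largest difference were taken from the 32, all of which had the higher MI minus GV change in KO. The limma adjusted p was 0.000168 for Lypd3, 0.000744 for Cdkn1b and 0.00379 for Extl1. It was 0.0122 for Zglp1, 0.0182 for C8g, a complement component, and 0.0227 for Snx15. It was 0.0292 for Actg2 and 0.0461 for Klc3. Extl1, Actg2 and Klc3 were listed at 0 in both WT MI libraries, and Klc3 read 19.3 and 0 FPKM in KO GV. The calls of Lypd3 and Cdkn1b held under all 15 alternatives and that of Extl1 under 14. Those of C8g held in 8, Zglp1, Snx15 and Actg2 in 5 and Klc3 in 4. C8g had 31.0 and 29.2 FPKM in KO MI against 6.30 and 12.3 in KO GV, and 8.39 and 3.37 in WT MI against 15.7 and 35.7 in WT GV. Groups of 2 libraries are too small for a search for single outlying libraries.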

How the results depend on the processing

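No alternative gave a member called lower in KO at MI. In WT 1 member was called higher at MI with quantile normalization (29 lower), without WT MI library 2 (68 lower) and among the 300 highest (112 lower), and 1 interaction ran the other way without WT MI library 2 (47 in the main direction). The median of the 150 genes relative to that of all genes kept its sign under every alternative that left the members as they were: 0.69 to 1.07 for KO minus WT at MI, -1.30 to -0.92 for MI minus GV in WT, -0.41 to -0.15 for MI minus GV in KO, 0.70 to 1.07 for the interaction and 0.05 to 0.22 at GV. At MI the count of 73 was 27 with TPM, 20 with median scaling, 13 with quantile normalization, 46 with the groups of the comparison alone, 121 of the 300 highest and 42 of the 75 highest, and 24 to 74 with 1 library left out. The median of 1.87 was 2.12 with a pseudocount of 0.1, 1.25 with TPM, 0.91 with median scaling, 0.80 with quantile normalization, 1.71 with members ranked by mean and 1.69 to 1.91 with 1 library left out. For MI minus GV in WT the count of 78 was 34 with median scaling, 30 with quantile normalization, 39 with the groups alone, 46 of the 75 highest and 36 to 76 with 1 library left out. Its median of -1.88 was -2.12 with a pseudocount of 0.1, -1.62 with TPM, -1.14 with median scaling, -0.99 with quantile normalization and -1.62 over the 300 highest. For MI minus GV in KO the count of 9 was 14 with TPM, 15 of the 300 highest and 0 to 17 with 1 library left out. Its median of 0.03 was -0.58 with TPM, -0.27 with median scaling, -0.19 with quantile normalization, -0.31 over the 75 highest, -0.11 with members ranked by mean and -0.17 to 0.084 with 1 library left out. The interaction count of 32 was 21 with no filter, 4 with TPM, 4 with median scaling, 3 with quantile normalization, 21 of the 75 highest and 9 to 49 with 1 library left out, and its median of 1.95 was 2.40 with a pseudocount of 0.1, 1.08 with TPM, 0.92 with median scaling and 0.86 with quantile normalization. At GV the count of 0 was 1 with all 12 libraries, 1 of the 300 highest and 0 to 1 with 1 library left out, and the median of 0.08 was 0.31 with TPM. Among the named results, signs reversed at MI for Dscc1 (-0.047 with median scaling) and for members that were not called. Those were Rpp38 (-0.126 with TPM, -0.545 with median scaling, -0.482 with quantile normalization), Hdac3 (-0.179, -0.59 and -0.583 in the same order), Bop1 (-0.172 with median scaling, -0.137 with quantile normalization), Alg3 (-0.0895 and -0.131) and Ddx56 (-0.343 and -0.293). The interaction reversed for Rab4b (-0.03 with median scaling and -0.052 with quantile normalization). For Cnot6l, with 1 library left out, MI minus GV in KO ran from -0.124 (without KO GV library 1) to 1.508, and the interaction from -1.285 to 0.347 (without KO GV library 2, and 0.137 without WT GV library 2). Of 1422 alternatives over 90 results of single members, 1049 kept direction and call, 346 lost the call, 12 gained one and 15 reversed. Replicate numbers did not pair the libraries (correlations of their deviations 0.0022 to 0.0271), and with a replicate block the counts were 0 at GV, 76 at MI, 80 in WT, 7 in KO and 37 for the interaction. The causes were not tested. Depth in reads is unknown, so a listed 0 has no upper limit.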

Other observations

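With genotypes exchanged, the rule (0 FPKM in both KO MII libraries and at least 8.24 FPKM in both WT MII libraries) held for 6 genes, which its MII values chose and which are given as values. Nupr1, a stress-induced chromatin protein, had 47.0 and 65.2 FPKM in WT MII, and 35.9 and 33.6 in KO MI against 50.3 and 73.2 in WT MI. Dcpp1, a secreted protein, had 24.5 and 28.9 FPKM in WT MII, and 0.80 and 0 in KO MI against 93.7 and 132 in WT MI. It was listed at 0 in both KO GV libraries, against 23.2 and 19.8 FPKM in WT GV. Agbl2, a carboxypeptidase of tubulin tails, had 18.1 and 19.0 FPKM in WT MII, and 0.21 and 0.61 in KO MI against 21.2 and 31.2 in WT MI. Thus Dcpp1 and Agbl2 were near 0 in KO at MI too, and Nupr1 was not. The others were Sh3bp5, Hist1h4d and Ehmt2, with 8.58 to 21.0 FPKM in the WT MII libraries.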
